A study of Mus musculus with 6 samples.

Results

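The genes described here are 10 transcripts whose balance separates fetal or stressed heart muscle from adult heart muscle: Myh6 and Myh7, Actc1 and Acta1, Tnni3 and Tnni1, Nppa and Nppb, Ankrd1 and Myl7. They were taken by symbol from a table of 18158 features in TPM (transcript abundance corrected for length, on a scale whose total is fixed for every library), and all 10 were found there. The 6 libraries come from ventricular RNA of 6 CD1 mice (outbred, 3 months old), 1 mouse each. The 3 vehicle mice received daily injections of PBS for 14 days. The other 3 received paromomycin and neomycin together, a pair of aminoglycoside antibiotics (Paro/Neo). Their dose was 150 mg/kg by the intraperitoneal route, given 2 times a day over the same 14 days. No genetic change is named for either group, and the study's design text asks how gene expression differs where Paro/Neo suppresses the activity of the transcription factors Meis1 and Hoxb13. The labels do not give sex, and say daily for PBS but 2 times a day for Paro/Neo.

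As background, heart muscle builds its sarcomeres from alternative isoforms. In the adult mouse ventricle the fast alpha myosin heavy chain (Myh6), cardiac alpha-actin (Actc1) and cardiac troponin I (Tnni3) predominate, while the fetal ventricle uses more beta myosin heavy chain (Myh7), skeletal alpha-actin (Acta1) and slow skeletal troponin I (Tnni1). Under load or injury the adult ventricle commonly returns part of the way to the fetal set and makes more of the natriuretic peptides ANP (Nppa) and BNP (Nppb) and of the ankyrin repeat protein CARP (Ankrd1). Myl7, the atrial regulatory myosin light chain, is a marker of atrial muscle whose ventricular counterpart is Myl2.

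None of the 9 genes high enough to test passed between the groups, and Tnni1 was too low to test. Of the 9, 4 had a higher and 5 a lower fitted level in Paro/Neo hearts, and 0 passed a Benjamini-Hochberg adjusted p of 0.05 over all genes (limma on log2(TPM + 1)). The background for that count is 0.137% of 12409 genes tested, 15 higher and 2 lower. Without adjustment, too, 0 of the 9 were under 0.05, against 7.61% of all genes. The groups did not overlap for 1 of the 9, Nppb, against 14.3% of all genes. The median log2 change of the 9 was -0.03, against -0.02 over all genes tested, and their median absolute change was 0.16 against 0.12.

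Before the single genes, 1 library needs naming. Paro/Neo replicate 1 held the highest or the lowest value of 59.8% of the tested genes, where the other libraries did so for 21.5% to 34.7%. It did so for 8 of the 9 tested genes described here, being lowest for 5 and highest for 3. The whole set made up 3.23% of all TPM in that heart, against 4.07% to 5.02% in the others. The tested genes and their shares are therefore also given without it, as 3 vehicle against 2 Paro/Neo hearts. Depth inferred from the deposited values ran from 9556387 to 15969980 reads per library, as lower estimates.

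**Figure D1:**
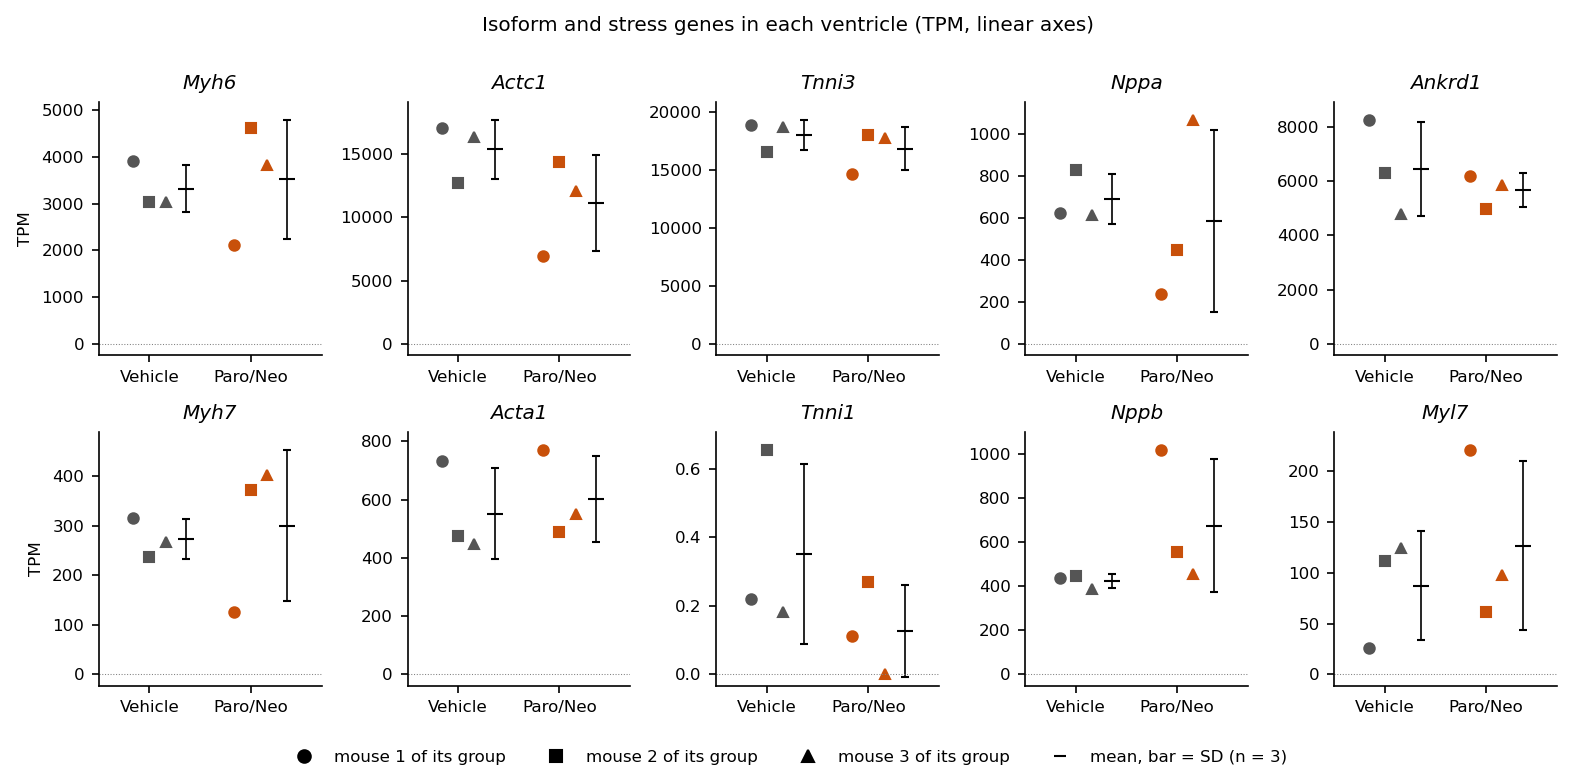
TPM of each gene in each mouse (vertical linear axes, different for each panel) for vehicle and Paro/Neo hearts, with marker shapes for mouse 1, 2 and 3 of each group and a bar for mean and SD (n = 3). Paro/Neo mouse 1 is the lowest point for Myh6, Actc1, Tnni3, Nppa and Myh7 and the highest for Acta1, Nppb and Myl7; in the Nppb panel all 3 Paro/Neo points lie above the vehicle points.

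Stretches of upstream sequence are shown for the 6 genes in which Paro/Neo replicate 1 lay farthest from the others or on opposite sides within a pair, so that the genes high in that heart (Nppb, Acta1, Myl7) can be read beside those low in it (Nppa, Myh7, Actc1). The sequences are from RefSeq on GRCm38.p6, 5′ to 3′ on the gene's strand, and all 10 genes matched, with 12 windows. Whole windows cover the 250 bases before the annotated start. Capitals mark 4 motifs, each searched on both strands, and no 2 matches overlapped. The TATA box was searched as TATAAA, where transcription machinery assembles. GATA factors were searched for as AGATAA only. The MCAT core, the element to which TEAD factors bind, was searched for as CATTCC, which reads GGAATG from the opposite strand. The CArG box is the element of serum response factor. The windows of Nppa (chr4:148000472-148000721, plus strand), Acta1 (chr8:123894776-123895025, minus strand), Myl7 (chr11:5898783-5899032, minus strand) and Myh7 (chr14:54994627-54994876, minus strand) are given whole, and short stretches are given for Nppb (chr4:147985795-147985821, plus strand) and Actc1 (chr2:114052903-114052932, minus strand). These short stretches lie before the RefSeq start used here but inside the wider GENCODE M21 gene models of Nppb and Actc1.
Nppa: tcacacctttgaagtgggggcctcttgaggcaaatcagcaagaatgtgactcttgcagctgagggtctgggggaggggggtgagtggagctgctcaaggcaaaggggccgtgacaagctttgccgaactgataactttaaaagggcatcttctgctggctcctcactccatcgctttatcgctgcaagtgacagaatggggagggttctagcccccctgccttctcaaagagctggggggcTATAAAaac
Nppb: GGAATGcagctgataaatcagAGATAA
Acta1: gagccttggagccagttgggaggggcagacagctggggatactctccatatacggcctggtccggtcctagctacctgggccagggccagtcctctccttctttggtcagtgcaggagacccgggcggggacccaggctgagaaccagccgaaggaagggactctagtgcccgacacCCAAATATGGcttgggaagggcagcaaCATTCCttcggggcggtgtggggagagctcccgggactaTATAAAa
Actc1: gctaaggcgaCCAAATAAGGcaaggtggca
Myl7: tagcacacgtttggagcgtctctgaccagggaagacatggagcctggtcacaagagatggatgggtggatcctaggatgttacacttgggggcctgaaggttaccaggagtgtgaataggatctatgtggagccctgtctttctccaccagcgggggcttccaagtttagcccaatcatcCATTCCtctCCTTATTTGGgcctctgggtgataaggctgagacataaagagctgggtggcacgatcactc
Myh7: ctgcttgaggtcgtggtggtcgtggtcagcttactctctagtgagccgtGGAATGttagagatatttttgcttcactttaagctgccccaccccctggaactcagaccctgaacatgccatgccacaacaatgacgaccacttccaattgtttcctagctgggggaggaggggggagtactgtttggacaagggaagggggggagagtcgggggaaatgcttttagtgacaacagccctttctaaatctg
CATTCC was found in the windows of 6 of the 10 genes (Myh6, Myh7, Acta1, Nppb, Ankrd1 and Myl7), and 12.57% of 32536 mouse windows of the same length hold it. A CArG box was found in 3 (Actc1, Acta1 and Myl7), against 1.478% of all windows. TATAAA was found in 3 (Acta1, Nppa and Nppb) against 12.31%, and AGATAA in 2 (Nppb and Ankrd1) against 9.97%. AGATAA is not the only form of the GATA site. The form TGATAA was neither searched nor marked, and the Nppa, Nppb and Myl7 sequences shown hold it. A window without AGATAA is therefore not a window without a GATA site. These are matches of letters, not measured binding, and factor activity was not assayed.

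By level, the adult isoforms stood far above their fetal partners in every heart. In vehicle hearts Tnni3 was highest at 18038 TPM ± 1293 (SD, n = 3 here and below), followed by Actc1 at 15374 ± 2348, whose range overlapped that of Tnni3. Ankrd1 at 6447 ± 1740 and Myh6 at 3318 ± 503 came next and did not overlap. Nppa (688 ± 119), Acta1 (552 ± 156) and Nppb (424 ± 32.7) overlapped with their neighbours in this order. Myh7 at 274 ± 40.1 lay below Nppb in every vehicle heart. Myl7 at 87.4 ± 53.9 and Tnni1 at 0.352 ± 0.26 were lowest. Tnni3 ranked 3 to 5 among all 18158 features across the 6 hearts, Actc1 5 to 11 and Myh7 330 to 1120.

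Neither myosin heavy chain gene passed the test between the groups, and both were lowest in the same heart, Paro/Neo replicate 1. They lie side by side on chromosome 14, Myh6 at chr14:54941921-54966927 and Myh7 at chr14:54970684-54994626 (GRCm38, GENCODE M21, whole genes, both on the minus strand), with 3756 bases between them. Myh6, the main motor of the adult mouse ventricle, was at 3898, 3025 and 3029 TPM in vehicle replicates 1 to 3 and at 2118, 4616 and 3816 TPM in Paro/Neo replicates 1 to 3. The treated hearts thus lay on both sides of the vehicle range. The log2 change was 0.02 ± 0.27 (SE; 95% interval -0.60 to 0.64; adjusted p 0.989 by limma).

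Myh7, the slower motor that the fetal ventricle favours, was at 316, 237 and 268 TPM in vehicle and at 125, 373 and 404 TPM in Paro/Neo hearts. Its lowest and its 2 highest values were all in treated mice, so that the SD was 40.1 in vehicle and 153 in treated hearts. Its fitted log2 change was -0.03 ± 0.40 (interval -0.95 to 0.90; adjusted p 0.991), although the ratio of mean TPM was 1.10, above 1. Without Paro/Neo replicate 1, Myh7 was higher in both remaining treated hearts than in any vehicle heart. The log2 change was then 0.51 ± 0.13 (interval 0.21 to 0.82), with an unadjusted p of 0.00554 and an adjusted p of 0.416 by limma, and that of Myh6 was 0.35 ± 0.15 (adjusted p 0.683). In that fit 1 of the 9 genes had an unadjusted p under 0.05, against 7.29% of all genes, and 0 passed after adjustment, against 0.0484%.

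The share of Myh7 in the summed TPM of both myosins was close between the groups. It was 7.51%, 7.26% and 8.13% in vehicle and 5.58%, 7.48% and 9.57% in Paro/Neo hearts, the latter spanning a range wider on both sides. The means were 7.63% ± 0.45 and 7.54% ± 2.00, a difference of -0.09 percentage points (exact permutation test, two-sided, p = 0.9; adjusted over the 5 shares 0.9). With 3 mice per group that test cannot go below 0.10. Without Paro/Neo replicate 1 the difference was 0.90 points. The summed level of both genes had a vehicle mean of 3591 TPM ± 540 and a Paro/Neo mean of 3818 TPM ± 1417. Of the 76-base windows in Myh6 transcripts 13.6% also occur in Myh7, and 10.45% of those in Myh7 occur in Myh6, so reads from shared stretches may have been dropped or split by the counting. Genes on the opposite strand overlap Myh6 (Gm49130), Actc1 (A530058N18Rik), Acta1 (Gm20388), Nppa (Gm13054) and Myh7 (Mhrt, Gm29015, Gm17428 and Gm31251). Overlap was taken over whole genes, not exons. Without the strand setting, their reads in shared stretches cannot be told apart from those of the genes. Dnaaf3, at 4.64 TPM or less, overlaps Tnni3 on the same strand.

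**Figure D2:**
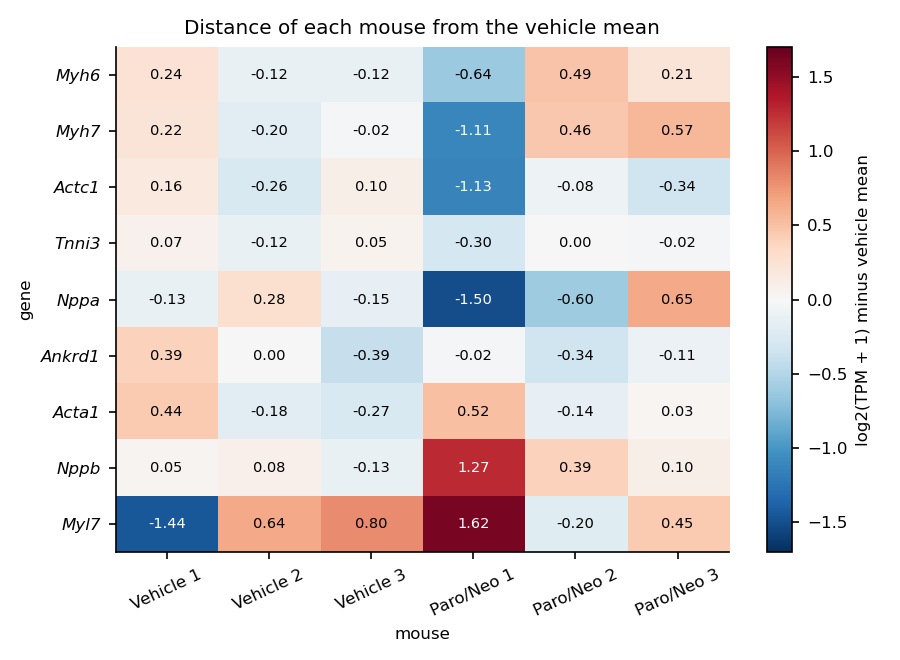
Each cell gives log2(TPM + 1) of 1 gene (rows) in 1 mouse (columns) minus the mean of the 3 vehicle mice, blue for lower and red for higher. The column of Paro/Neo mouse 1 holds the deepest blue for Nppa at -1.50, with Actc1 and Myh7 at -1.13 and -1.11, and the deepest red for Myl7 at 1.62 and Nppb at 1.27.

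In the actin pair, neither gene passed the test, and Paro/Neo replicate 1 was lowest for the cardiac and highest for the skeletal form. Actc1, the actin of cardiac thin filaments (chr2:114047282-114053548), was at 17066, 12693 and 16362 TPM in vehicle and at 6961, 14403 and 12073 TPM in Paro/Neo hearts. Paro/Neo replicate 1 was at 0.453 times the vehicle mean, and the other treated hearts were within or just under the vehicle range. The log2 change was -0.52 ± 0.26 (interval -1.11 to 0.08; adjusted p 0.695), and -0.21 ± 0.16 without that heart.

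Acta1, the actin of skeletal muscle that the heart re-expresses under load (chr8:123891769-123894751), was at 731, 476 and 448 TPM in vehicle and at 771, 490 and 549 TPM in Paro/Neo hearts. The groups overlapped, with 1 high heart in each. Its fitted log2 change was 0.14 ± 0.22 (interval -0.38 to 0.65; adjusted p 0.888), and -0.05 without Paro/Neo replicate 1. The share of Acta1 in the pair was 4.11%, 3.62% and 2.66% in vehicle hearts against 9.97%, 3.29% and 4.35% in Paro/Neo hearts. It was thus highest by far in Paro/Neo replicate 1, where Acta1 was highest and Actc1 lowest. The difference of 2.41 points (exact permutation p = 0.4, adjusted 0.667) came to 0.36 points without that heart. Skeletal muscle markers other than Acta1 summed to between 137 and 229 TPM in vehicle hearts, the treated sums of 167 to 172 TPM lying within that range. That sum rests on Myl1 and Casq1, while the fast skeletal markers Myh1, Myh2, Myh4, Actn3 and Tnnc2 were at or near 0 in every heart. Mylpf (2.18 to 3.77 TPM) and Tnni2 (2.08 to 4.81 TPM) were low but detected in every heart. Of 4 tested skeletal markers 1 was higher and 3 lower, and 0 passed after adjustment. The groups did not overlap for 1 of the 4, Mylpf, against 14.3% of all genes.

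Troponin I was almost wholly of the adult form. Tnni3 (chr7:4518305-4524229), the inhibitory subunit of the adult cardiac troponin complex, was at 18872, 16548 and 18693 TPM in vehicle and at 14667, 18031 and 17703 TPM in Paro/Neo hearts. It varied least among the 10 genes, with a coefficient of variation of 7.17% in vehicle and 11.0% in treated hearts. The log2 change was -0.11 ± 0.12 (interval -0.39 to 0.18; adjusted p 0.836), and -0.01 without Paro/Neo replicate 1.

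Tnni1 (chr1:135779434-135810989), the slow skeletal form used by the fetal heart, was at 0.219, 0.655 and 0.183 TPM in vehicle and at 0.111, 0.268 and 0 TPM in Paro/Neo hearts. These values rest on 2, 5 and 1 reads and on 1, 2 and 0 reads, and a count of 0 in Paro/Neo replicate 3 allows a level of up to 0.416 TPM (3 reads, counting error only). Tnni1 did not reach 1 TPM in any heart and was left out of the test. Its share of the pair was 0.00396% at most, and a difference was not detectable at this depth.

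**Figure D3:**
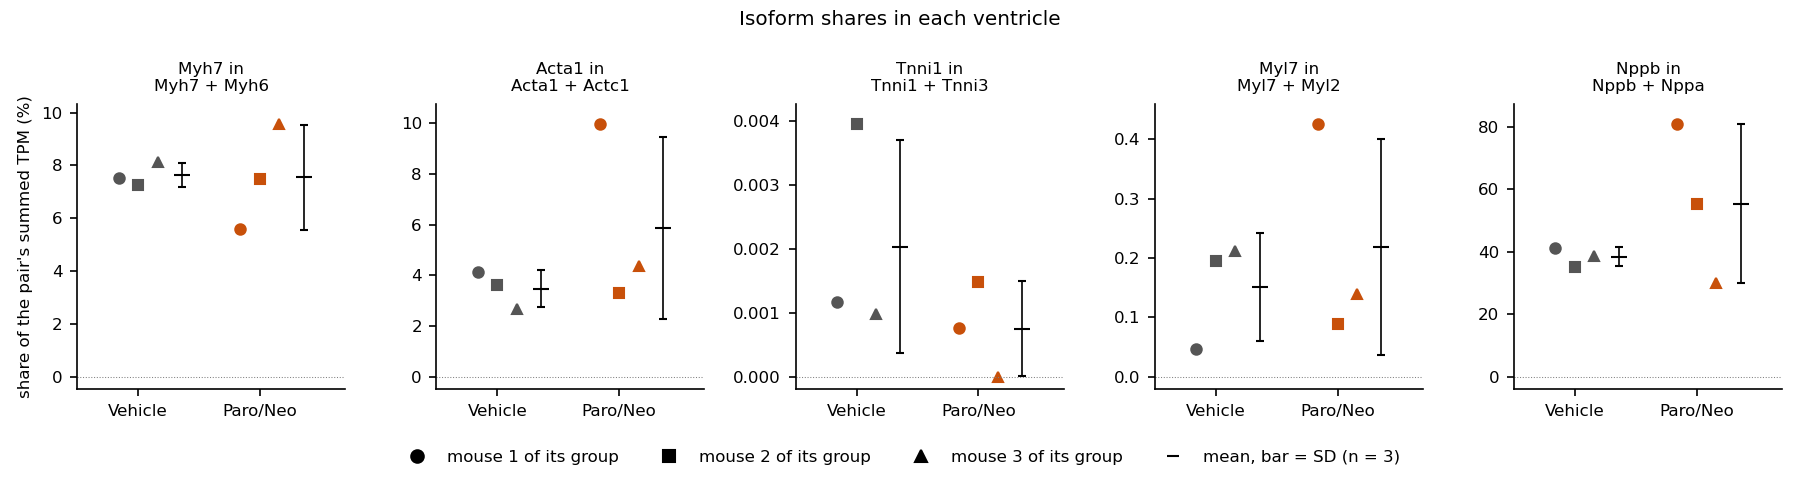
Share of 1 gene in the summed TPM of a pair (vertical axes, percent, different for each panel) in each mouse, with the mean and SD (n = 3) of each group. The groups overlap in all 5 panels; Paro/Neo mouse 1 is highest for Acta1 at 9.97%, Myl7 at 0.426% and Nppb at 81.0%, and lowest for Myh7 at 5.58%.

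Of the natriuretic peptide genes, neither passed the test. Nppb was higher in all 3 treated hearts, while Nppa was lower in 2 of them and highest in the other. Both genes lie on the plus strand of chromosome 4, Nppb at chr4:147985788-147987205 and Nppa at chr4:148000722-148002079, with 13516 bases between them. Nppa encodes the precursor of ANP, made mainly by atrial muscle in the adult. It was at 622, 825 and 616 TPM in vehicle and at 240, 448 and 1067 TPM in Paro/Neo hearts, so the 2 lowest hearts and the highest were all treated. Its coefficient of variation was 17.4% in vehicle and 73.6% in treated hearts. Its fitted log2 change was -0.49 ± 0.46 (interval -1.54 to 0.57; adjusted p 0.804), and 0.02 without Paro/Neo replicate 1.

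Nppb encodes the precursor of BNP, the stretch-responsive peptide of the ventricle used as a marker of heart failure. It was at 438, 448 and 387 TPM in vehicle and at 1021, 555 and 455 TPM in Paro/Neo hearts. Every treated heart was above every vehicle heart, the lowest of them by under 10 TPM. Mean levels were 424 TPM ± 32.7 and 677 TPM ± 302, a ratio of 1.60. The log2 change of 0.59 ± 0.26 (interval -0.02 to 1.20) had an unadjusted p of 0.0573 and an adjusted p of 0.661 by limma. Without Paro/Neo replicate 1 the ratio was 1.19 and the log2 change 0.25 ± 0.11 (adjusted p 0.718). In that comparison 2 of the 9 genes, Nppb and Myh7, did not overlap between groups, against 23.5% of all genes.

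The share of Nppb in the pair was 41.3%, 35.2% and 38.6% in vehicle hearts. In Paro/Neo hearts it was 81.0%, 55.4% and 29.9%, on both sides of the vehicle range. The difference of means was 17.0 points (exact permutation p = 0.4, adjusted 0.667) and 4.25 points without Paro/Neo replicate 1. The summed level of Nppa and Nppb had means of 1112 TPM ± 143 (vehicle) and 1261 TPM ± 259 (Paro/Neo; exact permutation p = 0.7).

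**Figure D4:**
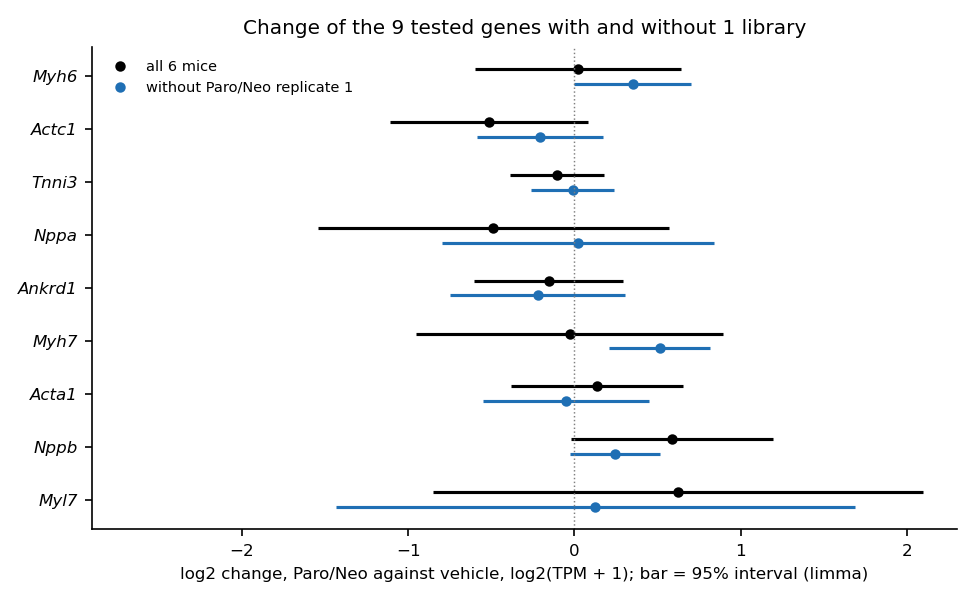
Fitted log2 change of each of the 9 tested genes in Paro/Neo against vehicle hearts (horizontal axis, log2(TPM + 1) scale; bars are 95% intervals from limma), in black for all 6 mice and in blue without Paro/Neo replicate 1. All 9 black intervals include 0; in blue the interval of Myh7 runs from 0.21 to 0.82 before adjustment over genes.

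Ankrd1 (chr19:36111961-36120099), a nuclear and sarcomeric protein that binds the titin filament system and is induced by stretch, was among the 19 most abundant features in every heart. It was at 8258, 6293 and 4789 TPM in vehicle and at 6193, 4975 and 5847 TPM in Paro/Neo hearts, all treated values lying within the vehicle range. The log2 change was -0.16 ± 0.19 (interval -0.60 to 0.29; adjusted p 0.849), and -0.22 without Paro/Neo replicate 1. Ankrd1 was the 1 tested gene of the set for which Paro/Neo replicate 1 was neither highest nor lowest.

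Myl7 (chr11:5896637-5898782) was the most variable of the tested genes among vehicle hearts. It was at 25.7, 112 and 125 TPM in vehicle and at 221, 61.8 and 97.9 TPM in Paro/Neo hearts, so the lowest heart was a vehicle and the highest a treated one. Its fitted log2 change was 0.62 ± 0.64 (interval -0.85 to 2.09; adjusted p 0.821), and 0.12 without Paro/Neo replicate 1. Against Myl2, the ventricular regulatory light chain at 51694 to 69835 TPM, Myl7 made up 0.046% to 0.211% of the pair in vehicle and 0.088% to 0.426% in treated hearts (exact permutation p = 0.8, adjusted 0.9).

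Among the atrial markers, the light chain gene Myl4 and Sln, both picked after their values were seen, had the lowest and highest hearts of Myl7. Myl4, the atrial essential light chain, was at 22.7, 114 and 105 TPM in vehicle and at 214, 47.2 and 65.8 TPM in Paro/Neo hearts. Sln, which encodes sarcolipin, a regulator of the calcium pump in atrial muscle, was at 12.4, 46.6 and 39.1 TPM and at 93.7, 18.1 and 33.6 TPM. All 3 genes were lowest in vehicle replicate 1 and highest in Paro/Neo replicate 1. Other markers of the list did not share that order: Nr2f1 was lowest in Paro/Neo replicate 1 at 1.07 TPM, Dkk3 was highest in vehicle replicate 3 at 7.33 TPM, Stard10 was highest in Paro/Neo replicate 3 at 30.9 TPM, and Bmp10 was at 0.117 TPM or less in every heart. Kcnj3 (39.6 TPM) and Mybphl (4.75 TPM) were also highest in Paro/Neo replicate 1, but were not lowest in vehicle replicate 1. The 8 atrial markers other than Myl7 and Nppa summed to 88.9, 227 and 205 TPM in vehicle and to 387, 122 and 160 TPM in treated hearts, with 4 of 7 tested higher and 3 lower. Nppa, although also an atrial gene, was lowest in Paro/Neo replicate 1. In bulk tissue, a larger part of atrial muscle in a sample and more of these transcripts per cell cannot be told apart.

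**Figure D5:**
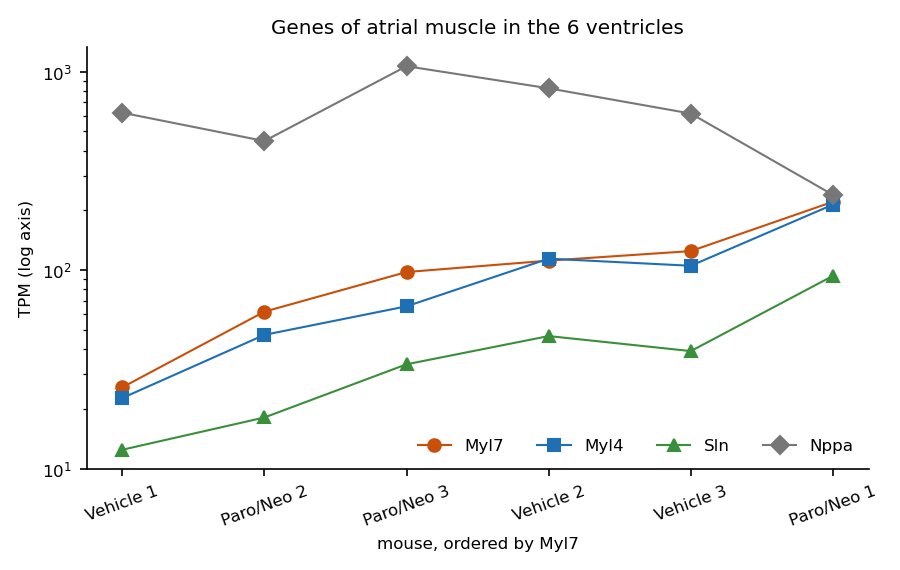
TPM on a log axis of Myl7, Myl4, Sln and Nppa in the 6 mice, which are ordered along the horizontal axis by their Myl7 level; lines join the points of 1 gene. Myl7, Myl4 and Sln share their lowest mouse, vehicle 1 (25.7, 22.7 and 12.4 TPM), and their highest, Paro/Neo 1 (221, 214 and 93.7 TPM), where Nppa is lowest at 240 TPM.

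Further genes around these isoforms gave 0 calls after adjustment in each list. Among 16 tested sarcomere isoform genes outside the set, 6 were higher and 10 lower, with their median being -0.03 on the log2 scale. These counts became 8 higher and 8 lower without Paro/Neo replicate 1. The groups did not overlap for 2 of the 16, a share near the 14.3% of all genes, and these 2 are given as values only. Myl3, the ventricular essential light chain, was at 9927, 9569 and 9340 TPM in vehicle and 13114, 11295 and 11552 TPM in Paro/Neo hearts (log2 change 0.32, unadjusted p 0.0155, adjusted p 0.497). Myh7b, a low-level relative of the myosins above, was at 7.97, 6.76 and 8.43 TPM and at 11.7, 12.7 and 10.2 TPM (log2 change 0.52, unadjusted p 0.004, adjusted p 0.323). Tnnc1, cardiac troponin C, was at 12904 TPM ± 1453 and 10896 TPM ± 1619 with an adjusted p of 0.723.

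In the natriuretic peptide pathway 5 of 11 tested genes were higher and 6 lower, median log2 change -0.03. These counts became 6 higher and 5 lower without Paro/Neo replicate 1. Of the 11, 1 (Npr1) did not overlap between groups, against 14.3% of all genes. Npr1, the receptor through which both peptides raise cGMP, was at 7.57, 8.90 and 7.26 TPM in vehicle and at 5.02, 6.03 and 7.14 TPM in Paro/Neo hearts. All treated hearts were lower, with a log2 change of -0.34 ± 0.15 and an adjusted p of 0.651. Pcsk6, a protease that activates corin, was at 49.3 TPM ± 4.10 against 39.3 TPM ± 11.0, and the clearance receptor gene Npr3 at 19.5 TPM ± 3.96 against 22.8 TPM ± 3.04.

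Of 22 tested regulators of cardiac isoform genes 9 were higher and 13 lower, and without Paro/Neo replicate 1 16 were higher and 6 lower. The groups did not overlap for 3 of the 22, again near the 14.3% of all genes, and the values of these 3 follow as a description. Nkx2-5, a homeobox factor of heart muscle, was at 15.4 TPM or more in vehicle and at 15.2 TPM or less in Paro/Neo hearts. Tead1, a factor that binds MCAT elements, was at 35.0 TPM ± 1.38 against 29.0 TPM ± 4.45. Tbx5, a T-box factor, was at 5.50 TPM ± 1.04 against 6.98 TPM ± 0.72. Adjusted p by limma was 0.657 to 0.697 for these 3.

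Among 12 tested relatives and partners of Ankrd1 at titin and the Z-disc 7 were higher and 5 lower. These counts became 5 higher and 7 lower without Paro/Neo replicate 1. No overlap between groups was seen for 2 of the 12, Tcap and Fhl2, a share near the 14.3% of all genes. Tcap, the titin cap, was at 1922, 1384 and 1768 TPM in vehicle and at 2789, 2642 and 2616 TPM in Paro/Neo hearts. All treated hearts were higher (log2 change 0.68 ± 0.13, adjusted p 0.179). Fhl2, a LIM protein found at the Z-disc, had a vehicle mean of 2969 TPM ± 298 and a treated mean of 2455 TPM ± 232, with no overlap. Mypn, which encodes myopalladin, had means of 19.9 TPM ± 2.33 against 23.6 TPM ± 2.29.

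Partners of fetal-to-adult switches in metabolism and excitation also gave 0 calls. Of 17 tested adult-type genes 6 were higher and 11 lower (median log2 change -0.04), or 9 higher and 8 lower without Paro/Neo replicate 1. Of 13 tested fetal-type genes 3 were higher and 10 lower (median -0.09), or 5 higher and 8 lower without Paro/Neo replicate 1. That list holds Pkm, whose splice forms cannot be told apart by values per gene. No overlap between groups was seen for 3 of the 17 (Cpt1b, Ckmt2 and Ryr2) and for 1 of the 13 (Slc2a1), against 14.3% of all genes. Cpt1b, the muscle carnitine palmitoyltransferase, was at 210 TPM ± 15.2 against 259 TPM ± 13.1 (adjusted p 0.496), while its fetal-type partner Cpt1a was at 18.3 TPM ± 3.39 against 17.5 TPM ± 3.19. The insulin-responsive glucose transporter gene Slc2a4 was at 216 TPM ± 2.44 against 198 TPM ± 37.0, and its partner Slc2a1 at 8.83 TPM ± 0.66 against 6.85 TPM ± 1.71. Ckmt2, mitochondrial creatine kinase, was lower in every treated heart (4768 to 5565 against 3568 to 4249 TPM, adjusted p 0.483). The ryanodine receptor gene Ryr2 was at 221 TPM ± 6.74 against 172 TPM ± 42.8, Pkm at 612 TPM ± 54.2 against 515 TPM ± 102, and Ckb at 16.8 TPM ± 3.31 against 13.9 TPM ± 3.38.

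Markers of the cells in the tissue were measured beside these genes. The 15 markers of ventricular muscle, which include Myh6 and Tnni3, were all detected, with 7 higher and 8 lower. They summed to between 173004 and 179777 TPM in vehicle hearts and to between 173179 and 193609 TPM in treated hearts. Abundant genes such as Myl2 weigh most in that sum. The median distance of these markers from the vehicle mean, on log2(TPM + 1), was -0.30 in Paro/Neo replicate 1. It was 0.06 and 0.10 in Paro/Neo replicates 2 and 3. Leaving out Paro/Neo replicate 1, 9 were higher and 6 lower. Fibroblast markers were lower for 9 of 9 genes, summing to 3572 to 3712 TPM and 2756 to 3481 TPM, and endothelial markers for 7 of 8, at 4174 to 4594 TPM and 3492 to 4072 TPM. Over all genes tested, 6666 of 12409 were lower. Without Paro/Neo replicate 1, 7 of the 9 fibroblast and 7 of the 8 endothelial markers were lower. On all 6 mice, 5 of the 9 fibroblast and 3 of the 8 endothelial markers did not overlap between groups, against 14.3% of all genes. An unadjusted p under 0.05 by limma was found for 4 of the 9 and 1 of the 8, against 7.61% of all genes. Macrophage markers were higher for 6 of 7, conduction system markers for 2 of 5, smooth muscle markers for 2 of 7 and erythroid markers for 0 of 5. None of these markers passed after adjustment, and their part in the values of the 10 genes was not tested.

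For each tested gene the transcripts closest to it over the 6 libraries were sought among 9100 others with a mean of at least 5 TPM, by Pearson correlation of log2(TPM + 1). Myh7 ran closest to Actn2, the alpha-actinin of the Z-disc (r = 0.997). Myh6 ran closest to Ndrg2 (r = 0.989) and then to Corin, the protease that cleaves the ANP precursor (r = 0.986). Actc1 was followed by Dlst (r = 0.999), Tnni3 by Dazap2 (r = 0.995) and Nppa by Ptprg (r = 0.994). In each of these 6 partners Paro/Neo replicate 1 was the lowest library. The closest named partners of Nppb were Nmnat1 (r = 0.993) and Tmem38b (r = 0.993), of Acta1 Asb14 (r = 0.989) and of Myl7 Rnaset2b (r = 0.990) and its near-identical copy Rnaset2a (r = 0.989), all highest in Paro/Neo replicate 1. Ankrd1 ran closest to Uxt (r = 0.988), with both highest in vehicle replicate 1. These coefficients describe 6 libraries that share the same groups and the same extreme heart.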

How the data were processed

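The authors deposited 1 table of TPM values, 1 column per mouse, each column summing to 1000000. The submitters' processing notes name STAR 2.5.3a, Subread with featureCounts, edgeR and FastQC 0.11.5, without their roles, and the build mm10. Annotation, strand setting and filter: not given in the sources used here. TPM sets a gene against all others in its library, so a change in abundant genes shifts the rest.

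A gene entered the test where 3 or more libraries reached 1 TPM. Testing was on log2(TPM + 1), which understates changes of low genes, with limma 3.58.1 in R 4.3.3 (intensity trend, two-sided, Benjamini-Hochberg over 12409 genes, 4.03 prior degrees of freedom). Of the 10 genes 9 passed that filter. In simulated libraries of these 12409 genes for this comparison, 92 of 100 genes changed 2-fold and 100 of 100 changed 4-fold were called. The simulated noise was drawn from all genes tested, without an extreme heart. The median SE was 0.26 for the 9 genes described here against 0.14 over all genes, so these rates do not carry over to the 9. Shares were compared by exact permutation over the 6 mice. Reads were inferred from ratios of TPM between libraries: 17574 of 17574 features above 0 came out whole within 0.001 of a read, as lower estimates. Reads from overlapping genes on either strand cannot be told apart where the strand setting is unknown.

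The genes and lists were chosen with earlier results of these data known. Besides the 10 genes, the rule named from each list the genes past the threshold, filled to the 3 with the smallest p, both partners of a listed isoform pair, Myl2, and the 3 transcripts closest to each gene, not all of which are reported. Single genes of the marker lists were named as markers after their values were seen. Replicate numbers follow the titles, while the column names number the treated mice differently, and no label gives a pairing. Deviations with the same title number correlated at -0.05, -0.04 and -0.12. With 3 mice per group that check cannot exclude a pairing.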

Additional observations from a re-analysis of the deposited data

How the results depend on the processing

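The count of the 9 tested genes past the threshold was 0 under all 13 alternatives run (limma), with adjusted p between 0.373 and 0.997. Unadjusted p was counted only for the fit reported above, the replicate block and the fits without 1 mouse. At an unadjusted p under 0.05 the count was 0 in the fit reported above, and 1 with the replicate block (Nppb, 0.0237). It was 1 without Paro/Neo replicate 1 (Myh7, 0.00554), 1 without replicate 2 (Actc1, 0.0211) and 2 without replicate 3 (Nppa, 0.00466, and Nppb, 0.00975), all failing adjustment. Over all genes that share was 7.61% in the fit reported above and 7.29% without Paro/Neo replicate 1. It was not counted for the other fits, so their counts have no background to be set against. Of 117 comparisons of their log2 changes with the fit on all 6 mice, 104 kept the direction and 13 turned it. Dropping the filter, a stricter filter and the replicate block cannot alter a log2 change in these equal groups. Their part of the 104 was therefore fixed in advance. Array weights turned Myh7 to 0.34 and Acta1 to -0.083, and quantile normalization turned Ankrd1 to 0.083. Leaving out 1 mouse at a time gave log2 changes of -0.21 to 0.35 for Myh6, -0.33 to 0.51 for Myh7, -0.053 to 0.36 for Acta1, -1.05 to 0.021 for Nppa, -0.35 to 0.041 for Ankrd1 and -0.10 to 1.04 for Myl7. Nppb (0.25 to 0.83), Actc1 (-0.73 to -0.21) and Tnni3 (-0.17 to -0.01) kept their direction, Nppb and Actc1 being closest to 0 without Paro/Neo replicate 1. Differences in share ran from -1.10 to 0.90 points for Myh7 and from -0.037 to 0.132 points for Myl7, while those of Acta1, Tnni1 and Nppb kept their direction. Of 21 other named genes, Cpt1a (-0.18 to 0.078) and Slc2a4 (-0.24 to 0.021) turned when 1 mouse was left out. Tnni1 has a limma value only without a filter.

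Over all genes, the 15 higher calls became 5 without a filter, 25 with the replicate block and 4 to 23 without 1 mouse. The 2 lower calls became 1 without a filter, with a stricter filter of 5 TPM or with quantile normalization, 4 with array weights, and 0 to 4 without 1 mouse. In the replicate block, 0 of 3 vehicle libraries correlated best with the treated library of the same number. It changed no call among the genes described here: 0 passed. The differences in share were -0.088 points for Myh7, 2.41 for Acta1 and 17.0 for Nppb with or without the block. A mean of paired differences equals the difference of group means here, so these values could not move. The counts without Paro/Neo replicate 1 for lists were chosen after seeing the data. With 3 mice per group precision differed by gene, from an interval of -0.39 to 0.18 for Tnni3 to one of -0.85 to 2.09 for Myl7 on the log2 scale.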
